A study of Rattus norvegicus with 6 samples.

Results

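The genes of the insulin-like growth factor (IGF) axis were followed in rat adipose-derived mesenchymal stem cells given branched chain amino acids. The set is the ligand gene Igf1, the receptor genes Igf1r and Igf2r, and the binding protein genes Igfbp2 to Igfbp7. These 9 genes were taken by symbol from a table of 21857 genes, and all 9 were found in it. In values, Igf1 and Igfbp3 were lower and Igfbp5 and Igf2r were higher with BCAA. For each, all 3 BCAA libraries lay on 1 side of all 3 vehicle libraries, as for 18.1% of all genes tested. For Igf2r the nearest libraries of the groups almost met. No member passed an adjusted p of 0.05 in the chosen fit, edgeR on all 6 libraries with TMM scaling and a low-count filter. Igfbp3 and Igfbp5 passed with DESeq2 and without that filter, in fits that called 1.72% and 0.748% of genes. Each passed in 3 of 11 alternative settings, the third being the fit without vehicle replicate 1. Neither passed with any other library left out, with RLE scaling or with no scaling factors. Neither passed with the replicate number as a block (adjusted p = 0.25 for each, edgeR).

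Total RNA was sequenced from Sprague Dawley cells in 2 groups of 3 libraries each. The BCAA group received 3.432 mM BCAA (leucine, isoleucine and valine as a class) for 12 h, and the vehicle group received vehicle for 12 h. Both groups were exposed to 100 µM hydrogen peroxide, an oxidant, and both were grown in high-glucose DMEM made without BCAA, with 10% fetal bovine serum. The study's title concerns BCAA build-up in the injured heart and implanted stem cells. The labels used here state neither the proportions of the 3 amino acids nor whether replicates are separate cultures. The p-values therefore speak only of spread from library to library, which could be technical.

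IGF1 is a secreted growth and survival factor that signals through the receptor tyrosine kinase IGF1R to the PI3K and AKT kinases and to MAP kinases. IGF2R, the cation-independent mannose 6-phosphate receptor, removes IGF2 from the cell surface and carries enzymes to lysosomes. The binding proteins hold IGFs in extracellular fluid and matrix, and proteases such as PAPP-A release the ligand by cutting them. Mesenchymal stromal cells are known to secrete both IGF1 and several of the binding proteins. Serum also carries IGFs and binding proteins, which these RNA counts do not measure.

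Libraries held 12725344 to 15739731 counts. Vehicle replicate 1 stood apart from the other 5 libraries on the first principal component, with a score of 26.8 against -15.2 to 0.54, and 6.58% of its counts were from mitochondrially encoded genes against 4.91% to 6.24% in the others. Of 11 stromal marker genes in the table, 9 were tested and none was called, and their summed level was 12808 to 13687 CPM in BCAA libraries and 12110 to 14705 CPM in vehicle libraries. The stromal genes Lepr and Ly6al were too low to test. Smooth muscle markers summed to 602 to 630 CPM in BCAA libraries and 881 to 945 CPM in vehicle libraries, and 2 of the 6 tested, Acta2 and Tagln, were called lower (adjusted p = 0.00059 and 0.00036, edgeR). Tagln made up most of that sum, at 507 to 534 CPM in BCAA libraries and 758 to 820 CPM in vehicle libraries. Myocd was too low to test. Leukocyte markers summed to 753 to 813 CPM in BCAA libraries and 815 to 983 CPM in vehicle libraries, with Cd3e at 0 counts and none of the 5 tested called. Lyz2 made up most of that sum, and 3 of the 5, Ptprc, Csf1r and Cd68, were higher in sign with BCAA (median log2 fold change of the 5, 0.08). The other 2, Lyz2 and Cd14, were lower, each with all BCAA libraries below all vehicle libraries. Adipocyte markers summed to 5.77 to 6.65 CPM in BCAA libraries and 3.87 to 6.30 CPM in vehicle libraries, and Fabp4 alone of 7 was tested. Endothelial markers summed to 11.5 to 12.4 CPM in BCAA libraries and 9.81 to 11.0 CPM in vehicle libraries, with 3 of 6 tested and none called. Epithelial markers summed to 0.945 to 1.33 CPM in BCAA libraries and 0.358 to 1.59 CPM in vehicle libraries, with none of 6 tested. CPM is the count as a share of the library, times 1e6, on sizes scaled by TMM, a trimmed mean that sets most genes equal between libraries.

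Of the 9 members, 8 passed the filter on low counts and were tested. With edgeR's quasi-likelihood test and adjustment over 12298 genes, 0 of the 8 were called, where 0.228% of all genes were called (28 genes, 7 higher and 21 lower; 11 higher and 18 lower with no scaling factors). At an unadjusted p under 0.05 there were 4 of the 8, against 11.8% of all genes. Groups did not overlap for 4 of the 8, against 18.1% of all genes. Higher with BCAA were 2 of them, Igf2r and Igfbp5 (9.29% of all genes), and lower were 2, Igf1 and Igfbp3 (8.76% of all genes). The median log2 fold change of the 8 was -0.06, and that of all genes tested was 0.0035. With DESeq2, Igfbp3 and Igfbp5 were called (1.72% of the genes with an adjusted p), and the same genes were called without the low-count filter (0.748% of genes). Without vehicle replicate 1, Igfbp3, Igfbp5 and Igfbp7 were called, in a fit that called 3.93% of genes.

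**Figure D1:**
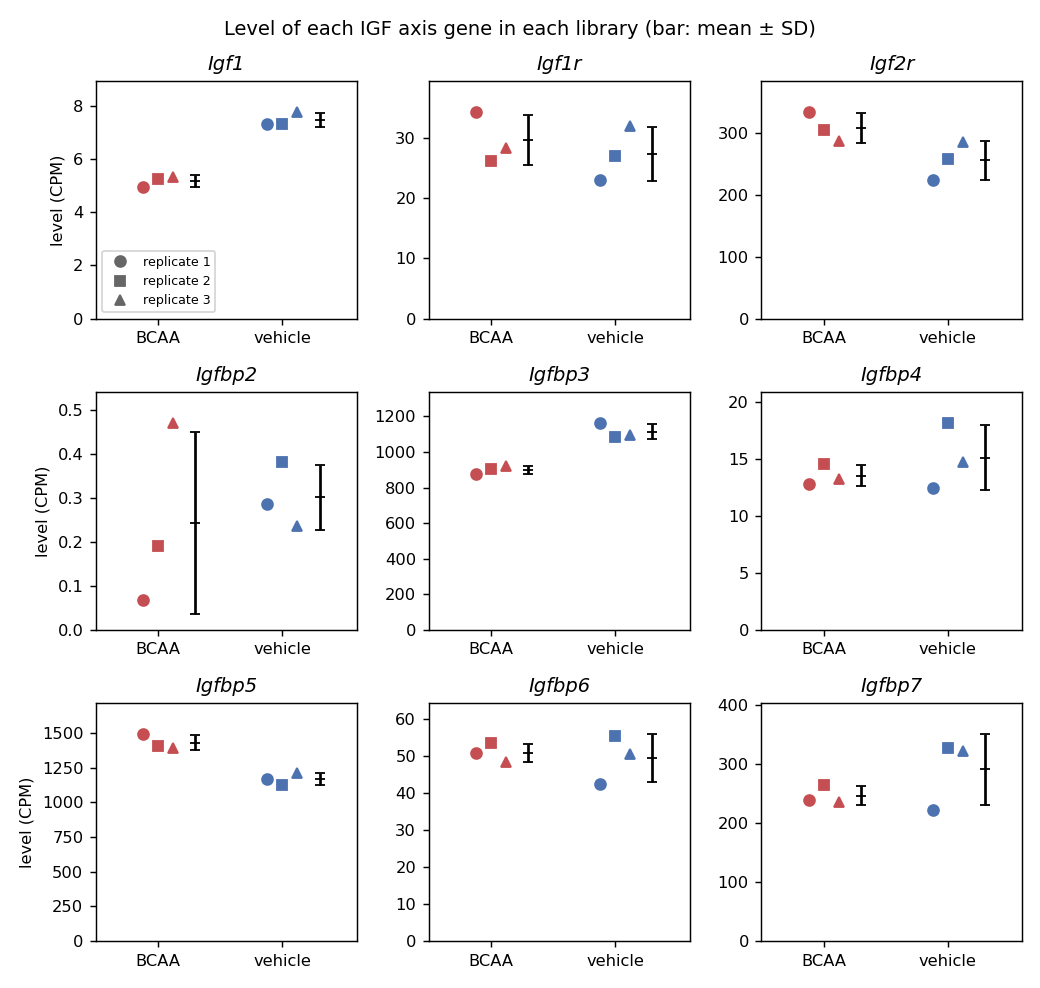
Level of the 9 IGF axis genes (CPM, linear axis from 0) in each BCAA and vehicle library, with the mean ± SD of the 3 libraries at the right of each group and the replicate number as the marker shape. Igf1 and Igfbp3 lie lower and Igf2r and Igfbp5 higher in all 3 BCAA libraries, while the vehicle libraries of Igfbp7 spread from 221 to 327 CPM.

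The ligand gene Igf1 had the largest difference among the 8 tested members. Its level was 4.93, 5.26 and 5.32 CPM in BCAA replicates 1 to 3, against 7.30, 7.30 and 7.76 CPM in vehicle replicates 1 to 3. All BCAA libraries were low and all vehicle libraries were high, with means of 5.17 ± 0.212 CPM in BCAA libraries and 7.45 ± 0.263 CPM in vehicle libraries (SD, n = 3 each). Its log2 fold change came to -0.53 (SE 0.16, 95% interval -0.86 to -0.19), a 1.44-fold lower level, with an unadjusted p of 0.0044 and an edgeR adjusted p of 0.18. These values rest on 73, 83 and 68 counts with BCAA and 102, 115 and 99 counts with vehicle. Counting error alone at that depth is 11.6% of the mean with BCAA and 9.74% with vehicle, above the SD of 4.11% with BCAA and 3.53% with vehicle seen between libraries. Under 11 alternative settings the log2 fold change lay between -0.55 and -0.50 and the adjusted p between 0.095 and 0.49 in the 10 that gave one. DESeq2 gave Igf1 no adjusted p. Macrophages also make IGF1, and leukocyte markers were detected here. The macrophage markers Csf1r and Cd68 were higher in sign, averaging 17.9 and 31.4 CPM in BCAA libraries and 16.8 and 29.6 CPM in vehicle libraries. Ptprc was also higher in sign, at 16.2 CPM in BCAA libraries and 15.1 CPM in vehicle libraries. Lyz2 was at 622 ± 25.8 CPM in BCAA libraries and 714 ± 85.1 CPM in vehicle libraries (SD, n = 3 each). Cd14 was at 100 ± 2.98 CPM in BCAA libraries and 108 ± 2.98 CPM in vehicle libraries (SD, n = 3 each). For Lyz2 and Cd14 all BCAA libraries were below all vehicle libraries. The part of such cells in the Igf1 difference was not tested, and in these bulk libraries fewer cells of a type and less RNA per cell cannot be told apart.

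The signalling receptor gene Igf1r did not separate the groups. It was at 34.3, 26.2 and 28.3 CPM in BCAA replicates 1 to 3, against 23.0, 27.0 and 31.9 CPM in vehicle replicates 1 to 3. BCAA replicate 1 was the highest of the 6 libraries and vehicle replicate 1 the lowest, and the other 4 overlapped. The log2 fold change was 0.12 (SE 0.13, 95% interval -0.16 to 0.40; adjusted p = 0.77, edgeR). It was 0.01 without vehicle replicate 1 and -0.0034 without BCAA replicate 1.

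Igf2r, the gene of the scavenger receptor for IGF2 and carrier of lysosomal enzymes, was at 334, 305 and 287 CPM in BCAA replicates 1 to 3. In vehicle replicates 1 to 3 it was at 223, 258 and 286 CPM. The groups were apart by less than 1 CPM, between BCAA replicate 3 at 286.89 CPM and vehicle replicate 3 at 285.96 CPM. Means were 308 ± 23.8 CPM in BCAA libraries and 256 ± 31.4 CPM in vehicle libraries (SD, n = 3 each). Its log2 fold change came to 0.27 (SE 0.09, 95% interval 0.08 to 0.46; adjusted p = 0.23, edgeR), and 0.18 without vehicle replicate 1. For each Igf1r count a library held 9.74, 11.6 and 10.1 Igf2r counts with BCAA and 9.71, 9.55 and 8.97 with vehicle, a ratio that does not depend on the scaling of the libraries. The groups almost met here too, at BCAA replicate 1 and vehicle replicate 1. This ratio was chosen after values were seen and carries no test.

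Igfbp3 encodes the binding protein that carries most circulating IGF and that also acts on cells without IGF. It was at 876, 906 and 919.6 CPM in BCAA replicates 1 to 3, against 1162, 1083 and 1097 CPM in vehicle replicates 1 to 3. The groups were well apart, with 163 CPM between the nearest libraries and an SD of 22.3 CPM in BCAA libraries and 42.0 CPM in vehicle libraries. Means were 901 CPM in BCAA libraries and 1114 CPM in vehicle libraries (n = 3 each), a 1.24-fold lower level. The log2 fold change was -0.31 (SE 0.06, 95% interval -0.44 to -0.18), with an unadjusted p of 0.00017 and an edgeR adjusted p of 0.054, just short of the threshold. It ranked 37 of 12298 genes by p. Over the 11 alternatives the log2 fold change lay between -0.33 and -0.27 and the adjusted p between 0.00086 and 0.29, and it was -0.27 (adjusted p = 0.0030) without vehicle replicate 1.

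Igfbp5 encodes a binding protein of connective tissue and bone that attaches to matrix. Its level was 1492, 1405 and 1396 CPM in BCAA replicates 1 to 3, against 1168, 1129 and 1213 CPM in vehicle replicates 1 to 3. Every BCAA library was high and every vehicle library low, and the gap of 183 CPM between the nearest libraries exceeded the SDs of 52.7 CPM in BCAA libraries and 42.2 CPM in vehicle libraries. Means were 1431 CPM in BCAA libraries and 1170.2 CPM in vehicle libraries (n = 3 each), a 1.22-fold higher level. The log2 fold change was 0.29 (SE 0.06, 95% interval 0.16 to 0.42), with an unadjusted p of 0.00033 and an edgeR adjusted p of 0.067. Over the 11 alternatives it lay between 0.26 and 0.32 with an adjusted p between 0.0028 and 0.30, and it was 0.29 (adjusted p = 0.0035) without vehicle replicate 1. The summed smooth muscle markers were lower with BCAA, at 602 to 630 CPM in BCAA libraries and 881 to 945 CPM in vehicle libraries. Most of that sum was Tagln. Igf1 and Igfbp3 were lower too, while Igfbp5 was higher. The part of cells with these markers in the differences of the 3 genes was not tested.

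Igfbp7 encodes a secreted matrix protein related to the binding proteins that binds IGFs weakly. It was at 238, 264 and 235 CPM in BCAA replicates 1 to 3, against 221, 327 and 322 CPM in vehicle replicates 1 to 3. Vehicle replicate 1 was the lowest of the 6 libraries while vehicle replicates 2 and 3 were the highest, so the groups overlapped. The log2 fold change was -0.24 (SE 0.13, 95% interval -0.53 to 0.05; adjusted p = 0.51, edgeR) and -0.40 (SE 0.06, adjusted p = 0.00023) without vehicle replicate 1. The call thus rested on leaving out a single library. Without vehicle replicate 2 it was -0.14 and without vehicle replicate 3 it was -0.16.

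Igfbp4 encodes a binding protein that holds back IGF action until PAPP-A cuts it. It was at 12.8, 14.6 and 13.2 CPM in BCAA replicates 1 to 3 and 12.5, 18.2 and 14.7 CPM in vehicle replicates 1 to 3. The groups overlapped, with a log2 fold change of -0.16 (SE 0.14, 95% interval -0.47 to 0.15; adjusted p = 0.70, edgeR) and -0.28 without vehicle replicate 1 (adjusted p = 0.26). It was -0.0045 (adjusted p = 0.99, edgeR) without vehicle replicate 2. Igfbp6 encodes a binding protein with a preference for IGF2. It was at 50.8, 53.5 and 48.5 CPM in BCAA replicates 1 to 3 and 42.6, 55.4 and 50.5 CPM in vehicle replicates 1 to 3. These values overlapped too, with a log2 fold change of 0.04 (SE 0.10, 95% interval -0.17 to 0.25; adjusted p = 0.91, edgeR), which was -0.06 without vehicle replicate 1.

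Igfbp2, the gene of a binding protein common in serum and in the developing nervous system, was too low to test. It had 1, 3 and 6 counts in BCAA replicates 1 to 3 and 4, 6 and 3 counts in vehicle replicates 1 to 3, and these few counts overlapped. In RefSeq's annotation of assembly GRCr8, Igfbp2 and Igfbp5 are next to each other among protein-coding genes, as are Igfbp1 and Igfbp3. Igfbp1, which is no member, had 0 counts in every library, which allows a level of up to 0.19 to 0.235 CPM per library (3 counts, counting error only). In both neighbouring pairs the counts thus came almost entirely from a single gene.

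**Figure D2:**
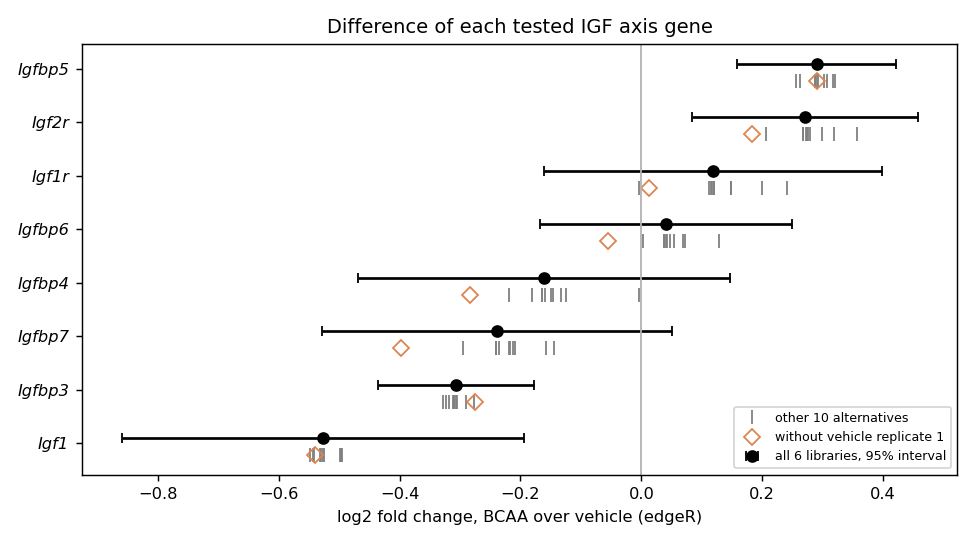
Log2 fold change, BCAA over vehicle, of the 8 tested IGF axis genes: the black point and bar are the edgeR estimate from all 6 libraries with its 95% interval, grey ticks are 10 alternative settings, and the open diamond is the fit without vehicle replicate 1. The intervals of Igf1, Igfbp3, Igfbp5 and Igf2r lie on 1 side of 0, and the diamond of Igfbp7 lies at -0.40, against -0.24 with all 6 libraries.

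The promoter sequences of the 4 members whose groups did not overlap are shown because these genes differed in opposite directions. Each is the 250 bases before the gene's start in RefSeq on build GRCr8, 5′ to 3′, at chr7:24172282-24172531 (plus strand) for Igf1, chr1:50526628-50526877 (plus strand) for Igf2r, chr14:86277945-86278194 (minus strand) for Igfbp3 and chr9:81914188-81914437 (minus strand) for Igfbp5. Capitals mark matches to the motifs named after the sequences, and the Igf1 and Igfbp5 windows hold no match.
Igf1: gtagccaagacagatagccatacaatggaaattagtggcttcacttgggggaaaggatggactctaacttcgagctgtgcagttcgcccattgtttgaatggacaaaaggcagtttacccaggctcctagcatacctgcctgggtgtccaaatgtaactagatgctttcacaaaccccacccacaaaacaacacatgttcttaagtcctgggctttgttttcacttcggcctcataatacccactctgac
Igf2r: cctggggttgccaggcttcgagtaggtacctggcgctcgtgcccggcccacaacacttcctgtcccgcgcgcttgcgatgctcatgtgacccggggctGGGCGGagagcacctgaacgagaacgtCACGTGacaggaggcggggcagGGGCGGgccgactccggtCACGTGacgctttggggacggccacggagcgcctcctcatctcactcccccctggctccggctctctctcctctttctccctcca
Igfbp3: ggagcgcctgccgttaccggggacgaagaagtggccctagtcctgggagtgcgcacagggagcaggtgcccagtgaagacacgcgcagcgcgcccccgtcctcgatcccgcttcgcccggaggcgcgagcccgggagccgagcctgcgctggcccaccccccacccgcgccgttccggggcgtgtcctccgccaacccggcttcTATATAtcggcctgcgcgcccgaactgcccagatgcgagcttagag
Igfbp5: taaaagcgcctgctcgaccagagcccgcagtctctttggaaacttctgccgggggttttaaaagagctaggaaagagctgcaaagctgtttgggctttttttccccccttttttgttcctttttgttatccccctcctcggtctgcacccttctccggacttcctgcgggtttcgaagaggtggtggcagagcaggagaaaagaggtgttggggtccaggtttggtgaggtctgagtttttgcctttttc

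Motifs were sought on both strands in the same 250 bases of 33469 RefSeq promoters. The Igf2r window held the E-box CACGTG, which 5.59% of promoters held, at 2 places, and the GC box GGGCGG (30.5% of promoters) at 2 places, with no overlap between them. The Igfbp3 window held TATATA, an alternative form of the TATA box (5.45% of promoters), from 46 to 41 bases before the start. None of the 4 windows held the TATA box TATAAA (12.9% of promoters), the AP-1 site TGANTCA (6.34%), the FOXO site GTAAACA (3.21%), the amino acid response element core TGATGNAA (3.4%), the TEAD site GGAATG (12.1%) or the CArG box (1.5%). A match or its lack describes these letters only. The G and C content was 46.8% for Igf1, 68% for Igf2r, 71.6% for Igfbp3 and 51.6% for Igfbp5, beside a median of 51.2% over all promoters.

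Summed, the 6 binding protein genes took 0.273%, 0.267% and 0.261% of all counts in BCAA replicates 1 to 3 and 0.251%, 0.262% and 0.271% in vehicle replicates 1 to 3. These shares overlapped, with means of 0.267% ± 0.0062 with BCAA and 0.261% ± 0.0097 with vehicle (SD, n = 3 each). The make-up of the sum differed: Igfbp5 gave 55.9%, 53.1% and 53.4% of the binding protein counts with BCAA and 44.8%, 43.2% and 45.0% with vehicle. Igfbp3 gave 32.8%, 34.3% and 35.2% with BCAA and 44.6%, 41.5% and 40.7% with vehicle. For each Igfbp3 count there were 1.70, 1.55 and 1.52 Igfbp5 counts with BCAA and 1.01, 1.04 and 1.11 with vehicle. The ratio is free of library scaling and its groups did not overlap, with a mean of 1.59 ± 0.0989 with BCAA and 1.05 ± 0.0511 with vehicle (SD, n = 3 each). It was formed from the members with the smallest p in each direction, so it describes these libraries and carries no test. These are shares of reads and not of molecules, because transcript lengths were not used.

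**Figure D3:**
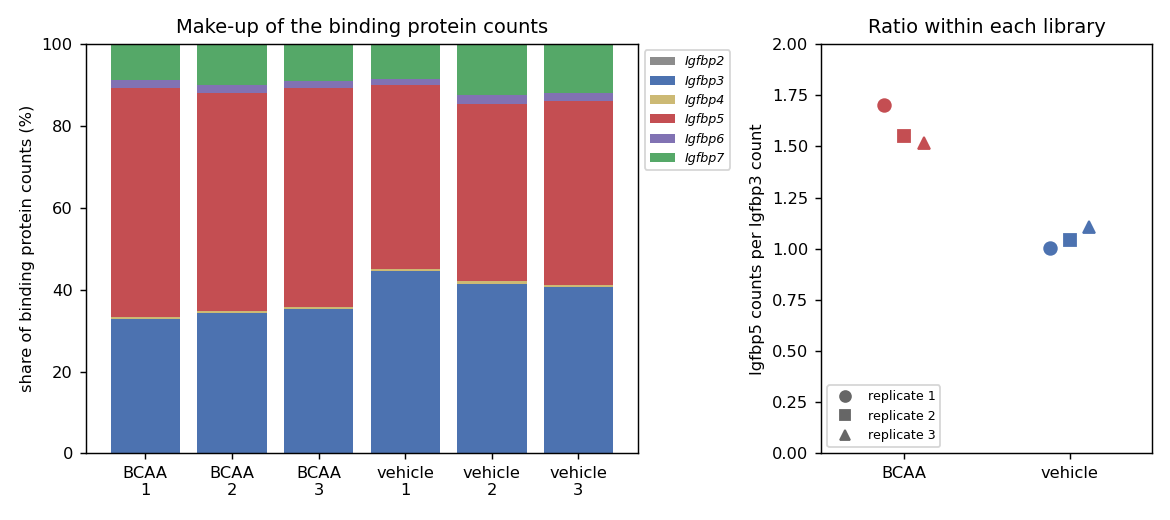
Left, share of the summed Igfbp2 to Igfbp7 counts (%) taken by each gene in each library, BCAA replicates first. Right, Igfbp5 counts per Igfbp3 count in each library, which lie between 1.52 and 1.70 with BCAA and between 1.01 and 1.11 with vehicle.

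Other genes of the pathway were taken as 7 lists, of which 92 genes were tested (Insr and Irs2 each stand in 2 lists). None of the 92 was called by edgeR with TMM scaling and the low-count filter, where 0.228% of all genes were, and 21 had an unadjusted p under 0.05, against 11.8% of all genes. DESeq2 called 4 of them, Stc1, Fbxo32, Itga5 and Thbs1 (1.72% of all genes with an adjusted p), and the same 4 were called without the filter (0.748% of all genes). Without vehicle replicate 1, 10 were called (3.93% of all genes), among them those 4 and Crim1, Grb10, Ccng2 and Spp1.

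In the rest of the family, 3 of 8 genes were tested. The insulin receptor gene Insr, whose product can pair with IGF1R, was at 37.3, 31.9 and 31.9 CPM in BCAA replicates 1 to 3 and 26.6, 27.7 and 31.0 CPM in vehicle replicates 1 to 3. All BCAA libraries were above all vehicle libraries, by a log2 fold change of 0.24 (SE 0.10, adjusted p = 0.36, edgeR). Crim1 and Esm1, which encode proteins with a domain like that of the binding proteins, stood at -0.34 (SE 0.14, adjusted p = 0.35) and -0.15 (SE 0.06, adjusted p = 0.36, edgeR) on the log2 scale. The lists left out the CCN genes, such as Cyr61 (Ccn1). Cyr61 was called lower with BCAA (log2 fold change -0.46, SE 0.06, adjusted p = 0.0059, edgeR). Crim1 was at -0.51 (adjusted p = 0.00075) without vehicle replicate 1 and at -0.23 without vehicle replicate 3. The ligand gene Igf2 had 2, 12 and 5 counts with BCAA and 5, 2 and 6 counts with vehicle. Igfals, which encodes the acid-labile subunit of the circulating complex, had 3 to 6 counts with BCAA and 1 to 4 with vehicle. Both genes were too low to test.

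Among 11 tested genes for proteases of the binding proteins and for protease inhibitors, 0 were called, with 7 higher and 4 lower in sign and a median log2 fold change of 0.04. The stanniocalcins Stc1 and Stc2, whose products bind and inhibit PAPP-A, had the smallest p-values. Stc1 was at 81.9, 68.9 and 84.7 CPM in BCAA libraries and 63.7, 59.5 and 56.3 CPM in vehicle libraries, a log2 fold change of 0.39 (SE 0.09, adjusted p = 0.089, edgeR). Stc2 was at 14.1, 14.1 and 13.7 CPM in BCAA libraries and 8.31, 10.5 and 10.7 CPM in vehicle libraries, a log2 fold change of 0.51 (SE 0.13, adjusted p = 0.14). For both genes all BCAA libraries were above all vehicle libraries. Timp1, a metalloproteinase inhibitor gene, had a log2 fold change of -0.17 (SE 0.08, adjusted p = 0.42), and -0.08 without vehicle replicate 1. Pappa, the gene of PAPP-A itself and chosen after its values were seen, was at 102, 64.5 and 61.1 CPM in BCAA libraries and 49.0, 62.1 and 78.1 CPM in vehicle libraries. The Pappa values overlapped, with BCAA replicate 1 the highest library (log2 fold change 0.27, SE 0.25, adjusted p = 0.74, edgeR).

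Upstream and downstream of the receptor, most differences were small. The growth hormone pathway, which drives Igf1 in liver, had 0 of 8 called, 7 higher and 1 lower in sign and a median of 0.04. Its receptor gene Ghr was 0.28 higher on the log2 scale (SE 0.20), the feedback inhibitor genes Cish and Socs3 0.06 (SE 0.07) and 0.03 (SE 0.09). Ghr lay between 0.13 (without BCAA replicate 3) and 0.41 (without BCAA replicate 2) with a library left out, and was 0.17 without vehicle replicate 3. Cish was at 0.02 and Socs3 at -0.07 without vehicle replicate 1. Of the genes of proteins that bind IGF mRNAs, Igf2bp2 had 0.13 (SE 0.10) and Igf2bp3 0.13 (SE 0.29), neither called. Igf2bp3 was at -0.10 without vehicle replicate 2.

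Receptor adaptors and kinases gave 0 called of 34, with 23 higher and 11 lower in sign and a median log2 fold change of 0.05. Grb10, an adaptor that dampens the receptor, was at 135, 116 and 128 CPM in BCAA libraries and 114, 98.1 and 108 CPM in vehicle libraries. Its groups did not overlap (log2 fold change 0.25, SE 0.08, adjusted p = 0.24, edgeR). Tsc2, a brake on mTORC1, had 0.19 (SE 0.07) and the PI3K catalytic gene Pik3cb 0.31 (SE 0.12), with adjusted p of 0.30 and 0.32. FOXO factors and their targets, which AKT signalling holds down, gave 0 called of 22, with 16 higher and 6 lower in sign and a median of 0.08. Fbxo32, the ubiquitin ligase atrogin-1, was at 33.3, 29.5 and 27.2 CPM in BCAA libraries and 19.4, 20.7 and 23.4 CPM in vehicle libraries. All its BCAA libraries were the higher ones (log2 fold change 0.51, SE 0.11, adjusted p = 0.071, edgeR). The cell cycle inhibitor gene Cdkn1b and the cyclin gene Ccng2 had 0.25 (SE 0.08) and 0.23 (SE 0.07), with adjusted p of 0.19 for each.

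Of 14 tested genes for matrix and cell surface partners, 0 were called, with 6 higher and 8 lower in sign and a median of -0.02. Itga5, a fibronectin receptor subunit, was at 854, 820.0 and 831 CPM in BCAA libraries and 681, 683 and 701 CPM in vehicle libraries. Its groups were far apart against their spread (log2 fold change 0.28, SE 0.06, adjusted p = 0.061, edgeR; 0.31 and called with no scaling factors). Thbs1, thrombospondin 1, had a log2 fold change of -0.36 (SE 0.07, adjusted p = 0.062) and Spp1, the integrin ligand osteopontin, 0.26 (SE 0.07, adjusted p = 0.14).

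**Figure D4:**
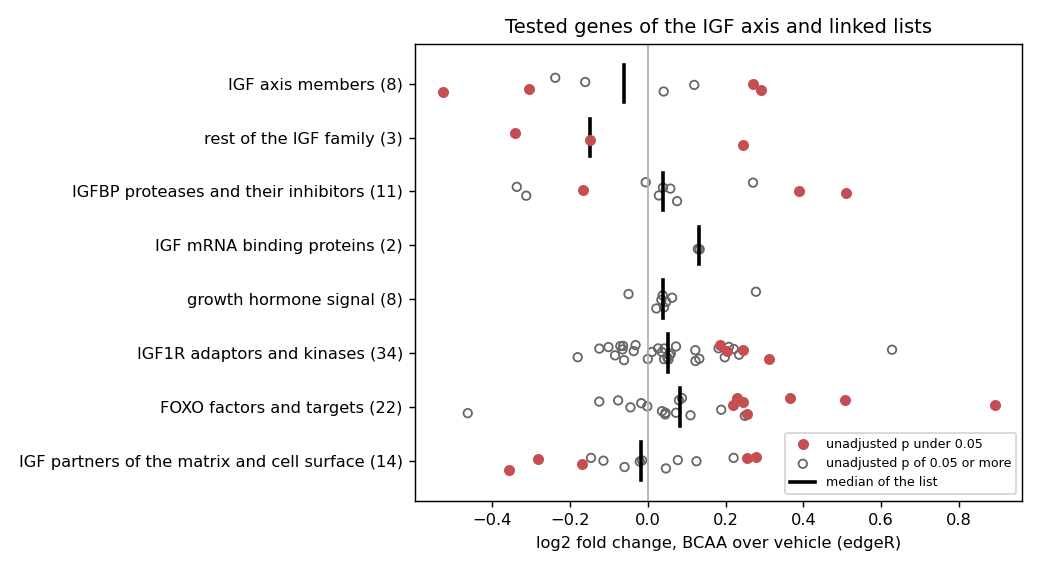
Log2 fold change, BCAA over vehicle (edgeR, all 6 libraries), of each tested gene of the IGF axis and of 7 linked lists, with the number tested in brackets and the list median as a bar. Filled points had an unadjusted p under 0.05, and no point passed an adjusted p of 0.05. Vertical scatter within a list has no meaning.

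The genes most like Igf1 in their course over the 6 libraries were sought among 11833 tested genes of at least 1 CPM. Likeness was the root mean square distance between log2 CPM values, each gene centred on its own mean. The nearest were LOC500712 (0.0447), LOC100365810 (0.0498) and Cyr61 (0.0504), beside a median distance of 0.297 for all genes compared. Counting error of Igf1 was 11.6% of the mean with BCAA and 9.74% with vehicle. Which genes come out nearest to it, and in what order, is therefore uncertain. LOC100365810 and Cyr61 were called lower with BCAA (adjusted p = 0.017 and 0.0059, edgeR), and LOC500712 was not called (adjusted p = 0.12, edgeR). Cyr61, the matricellular gene also called Ccn1, was at 293 ± 9.82 CPM in BCAA libraries and 402 ± 16.6 CPM in vehicle libraries (SD, n = 3 each). The nearest to Igfbp3 were Actb (0.0143), Rhoj (0.0247) and Cxcl12 (0.0266), beside a median distance of 0.21. Actb, cytoplasmic beta-actin, was at 1473 ± 26.4 CPM in BCAA libraries and 1801 ± 59.8 CPM in vehicle libraries. Rhoj, a small GTPase gene, was at 63.9 ± 1.25 CPM in BCAA libraries and 80.0 ± 4.63 CPM in vehicle libraries. Cxcl12, a chemokine gene, was at 569 ± 6.91 CPM in BCAA libraries and 697 ± 37.8 CPM in vehicle libraries (SD, n = 3 each).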

How the data were processed

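The authors deposited a table of raw read counts, 1 column for each of 6 libraries, neither normalized nor pooled. Trimmomatic, FastQC, STAR, HTSeq and the build rn6 are named, per the submitters' processing notes, with no versions, annotation or strand setting. Genes that overlap, on either strand, may thus have exchanged reads. Columns were matched to library titles, and every direction rests on those names. No row was left out for naming no gene.

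The counts were fitted with edgeR 4.0.16 in R 4.3.3 (quasi-likelihood test, robust, TMM scaling, group as the only term) after filterByExpr (minimum count 10, minimum total 15), which left 12298 genes with 99.9% of counts. P-values were adjusted by Benjamini-Hochberg over all of them and called under 0.05. The SE of a log2 fold change is its size over the square root of F, and log2 CPM used a prior count of 2. The fit was tested on simulated data with 50 genes changed at each size. It recovered 18% of those changed 1.25-fold and 64% of those changed 1.5-fold.

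Members and lists were chosen with earlier results of these data known. All 9 members are named, with up to 3 genes of smallest p in each list and the 3 genes most like Igf1 and the member of smallest p. The motifs, ratios and Pappa were chosen after values were seen. Of 157 list symbols 154 were found. Alternatives were DESeq2 1.42.0, RLE scaling, no scaling factors, no low-count filter, the replicate number as a block and each library left out. Chi-square per degree of freedom between libraries was 2.65 to 18.1, so none repeated another. Promoters come from RefSeq on GRCr8, and all 9 members matched. Figures were drawn with matplotlib 3.10.9.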

Additional observations from a re-analysis of the deposited data

How the results depend on the processing

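Of 374 values of 34 named genes under 11 alternatives, 324 kept their direction and side of the threshold, 3 (DESeq2 on Igf1, Igf2bp3 and Ghr) kept their direction with no adjusted p, 34 passed it newly, 9 no longer passed and 4 turned round. The 4 were near 0: over the fits with a library left out, log2 fold changes lay between -0.0034 (without BCAA replicate 1) and 0.24 for Igf1r, -0.056 (without vehicle replicate 1) and 0.13 for Igfbp6, -0.070 (without vehicle replicate 1) and 0.093 for Socs3, and -0.10 (without vehicle replicate 2) and 0.48 for Igf2bp3. The number of members called was 0 with all libraries in edgeR, 2 by DESeq2, 2 when low counts were not filtered and 0 to 3 with a library left out. For the 7 pathway lists it was 0, 4 with DESeq2, 4 without the filter, 1 with no scaling factors and 0 to 10 with a library left out. Over all genes it was 28, 144 with DESeq2, 124 without the filter and 7 to 491 with a library left out, the 491 without vehicle replicate 1. The cause of these changes was not tested.

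Fitting the replicate number as a block called 6 genes and no member (0 of the pathway lists). Deviations from the group means correlated across genes at -0.0661, 0.105 and -0.146 between libraries of equal number, so the numbers were not taken as pairs. The binding protein share differed by 0.0057 percentage points between groups, 0.0072 without mitochondrially encoded genes and 0.0003 with TMM-scaled sizes. With a library left out it differed by 0.00078 to 0.0104, the largest without vehicle replicate 3. That largest value exceeded the SDs of all libraries, 0.0062 with BCAA and 0.0097 with vehicle. The shares of the groups overlapped each time. Depth limits Igf1 most among the tested members, at 68 to 83 counts per BCAA library and 99 to 115 per vehicle library, and Igfbp2 could not be tested.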
